A study of Mus musculus with 6 samples.

Results

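Cyclins, cyclin-dependent kinases (CDKs), their inhibitors and modifiers, the pocket proteins and the E2F factors were examined as 44 genes in mouse mammary tumors. The members are a list of gene symbols, each read from the probe set that named that gene alone and had the highest mean over all arrays. All 44 had such a probe set, out of 19937 genes on the array. The tumors grew from 4T1 cells, a mouse mammary carcinoma line, of which 750000 were injected into mammary gland number 4 of Balb/C mice. From day 7, mice received by mouth each day for 14 days either water (3 tumors) or 40 mg/kg TKI258 (3 tumors). TKI258, also known as dovitinib, blocks several receptor tyrosine kinases, including FGF, VEGF and PDGF receptors. Both groups carried the same graft, and the sources used here do not state the sex or age of the mice. RNA came from whole tumors removed at the end, 1 array per tumor, so the signal is that of grafted cells together with host vessels, stroma and immune cells.

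The cell cycle is driven by CDKs that are active only when bound to a cyclin. In G1, D-type cyclins with CDK4 or CDK6 phosphorylate the retinoblastoma protein RB1 and its relatives p107 and p130, which releases E2F factors. Cyclin E with CDK2 then opens S phase. Cyclin A, cyclin B and CDK1 carry the cell through G2 into mitosis, and their genes are switched on late in the cycle by a complex of MuvB proteins with MYBL2 and FOXM1. Mitogens such as FGF are known to act mainly on the G1 part of this chain, through MYC and the D-type cyclins. Members were assigned to G1 (15 genes), G1/S (14 genes) or G2/M (11 genes) by the phase in which the product is best known to act, and 4 were given no phase.

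Values are log2 signals after RMA, differences are TKI258 minus water on the log2 scale with the standard error (SE) of limma's moderated fit, and the titles call the 3 tumors of each group biological replicates. Array correlations were 0.988 to 0.992 among water tumors and 0.981 to 0.993 among TKI258 tumors. The epithelial keratin genes Krt8 and Krt18 stood between 11.13 and 11.88 in all tumors, and 7 of 8 mammary epithelium markers lay above each array's median (6.38 to 6.44). TKI258 replicate 3 and water replicate 1 stood apart by high lymphocyte markers. The mean of 11 B cell markers was 8.78 and 6.91 in those tumors and 5.02 to 5.31 in the other 4. Water replicates 2 and 3 had high keratinocyte markers (7.28 and 7.09, against 5.34 to 5.72 elsewhere). Other marker means separated the treatment groups, as the G2/M members did. The mean of 12 adipocyte markers was 6.05 to 6.74 in water and 6.79 to 7.95 in TKI258 tumors, with 10 of the 12 genes higher on average. The mean of 12 neutrophil markers was 6.78 to 7.17 in water and 6.16 to 6.61 in TKI258 tumors, with 10 of the 12 genes lower. The mean of 12 macrophage markers was 9.19 to 9.68 in water and 9.01 to 9.15 in TKI258 tumors, with all 12 genes lower. The part of these cell types in the results below was not tested, and the counts that lead are also given without the tumors with high B cell markers.

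The G2/M members were lower in every TKI258 tumor than in any water tumor, whereas the G1 members showed no common direction. The G1 class mixes drivers (D-type cyclins, Cdk4, Cdk6 and Myc) with brakes (CDK inhibitors, pocket proteins, E2f4 and E2f5). Its counts and median therefore do not measure the drive through G1. All 11 G2/M members had the 3 TKI258 tumors below the 3 water tumors, compared with 3 of 14 G1/S members, 1 of 15 G1 members and 1 of the 4 without a phase, 16 of 44 together. The same held for 6.49% of all genes on the array. No member had all TKI258 tumors above all water tumors, against 8.66% of all genes. Leaving out any 1 array gave 1 or 2 such members, while 12.1% to 16.6% of all genes met the rule: Ccnd2 without water replicate 1, Ccnd3 without water replicate 2, Ccna1 without water replicate 3, Ccna1 and E2f2 without TKI258 replicate 1, Ccnd2 and Ccnd3 without TKI258 replicate 2, and Tfdp1 without TKI258 replicate 3. The median log2 difference was -0.27 for G2/M, -0.16 for G1/S and -0.04 for G1 members, beside 0.02 over all genes. The TKI258 mean was below the water mean in 11 of 11, 12 of 14 and 10 of 15 members, compared with 43.4% of all genes.

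None of these differences passed limma's test over the whole array at an adjusted p of 0.05, a threshold that 0 of 34760 probe sets reached (0%). Adjusted p-values from limma ran from 0.484 to 0.982 over the members and from 0.484 to 0.630 over the G2/M class. Before adjustment, 10 members were lower with a limma p under 0.05, of which 9 were G2/M genes and 1 a G1 gene, and 3.35% of all genes met that rule. A single member, Ccnd2, was higher with a limma p under 0.05, where 3.79% of all genes were. The difference between the phase classes was not tested, since the members were chosen with earlier results of these tumors known. The means of adipocyte, neutrophil and macrophage markers separated the same tumors, and their part in the G2/M result was not tested. In whole tumors, fewer dividing cells and less of a transcript per dividing cell cannot be told apart.

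**Figure D1:**
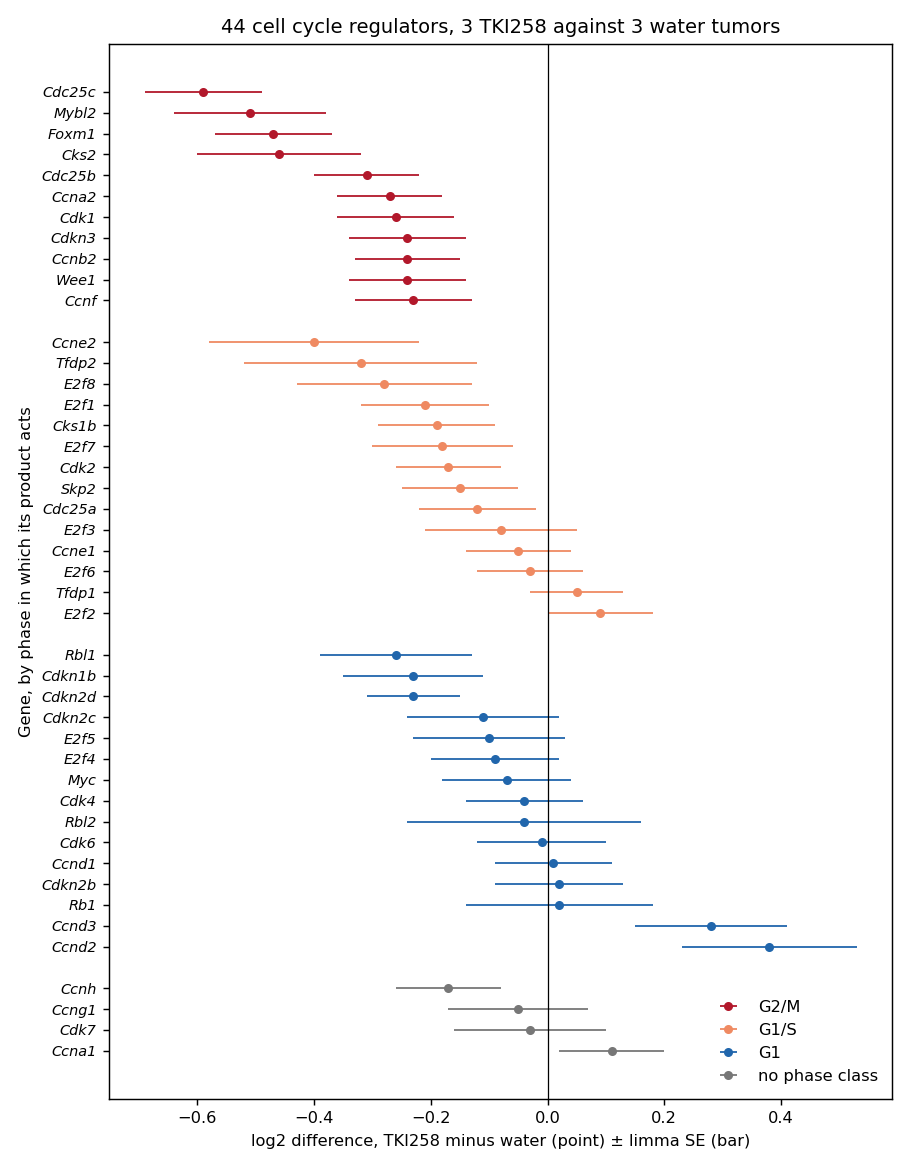
Log2 difference between TKI258 and water tumors (x axis, point) with limma's SE (bar) for each of the 44 genes (y axis), grouped by phase; n = 3 tumors per group. All 11 G2/M genes lie between -0.59 and -0.23, while G1 genes spread from -0.26 to 0.38 around 0.

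The shift could be followed tumor by tumor. Relative to the water mean of each gene, the median G2/M member stood at -0.33, -0.28 and -0.39 in TKI258 replicates 1, 2 and 3 and at -0.07, -0.06 and 0.10 in the water replicates. The groups were therefore separated by more than the spread within either. For G1/S members the TKI258 tumors stood at -0.12, -0.08 and -0.26 and the water tumors at 0.04, -0.07 and 0.01, with TKI258 replicate 3 well below the others. For G1 members the TKI258 tumors stood at -0.01, -0.04 and -0.11 and the water tumors between 0.00 and 0.03. The median over all genes lay between -0.03 and 0.03 in every tumor. TKI258 replicate 3 had the lowest TKI258 value for 25 of the 44 members, as it did for 44% of all genes, and for 11 of the 14 G1/S members. Water replicate 3 had the highest water value for 10 of the 11 G2/M members. Without TKI258 replicate 3 and water replicate 1, the tumors with high B cell markers, the medians were -0.32 for G2/M, -0.07 for G1/S and 0.02 for G1 members. All 11 G2/M members still separated the groups, when 16.1% of all genes had both remaining TKI258 tumors below both remaining water tumors. So did 5 of the 14 G1/S and 3 of the 15 G1 members. In that setting 29 of the 44 members were lower on average, and 7 G2/M members were lower with a limma p under 0.05 (3.77% of all genes). Without water replicate 3 the G2/M median was -0.22 and 5 of its members, rather than 9, had a limma p under 0.05. That count was also 5 without TKI258 replicate 1 and with the epithelium marker mean as a covariate. The share of all genes lower at that p was smaller in these settings too (2.02%, 2.81% and 1.79%, against 3.35%).

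**Figure D2:**
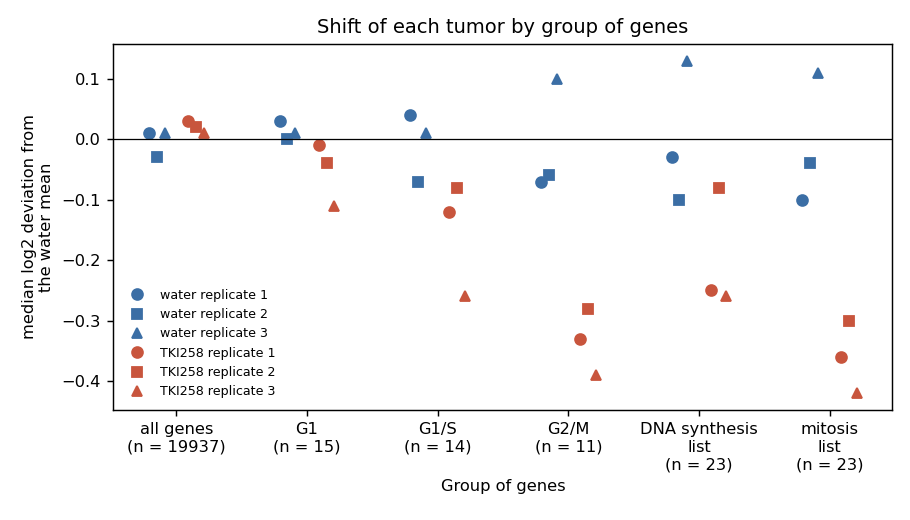
Median log2 deviation of each tumor from the water mean of each gene (y axis) for all genes, the 3 phase classes, and lists of DNA synthesis and mitosis genes (x axis); each point is 1 tumor. The TKI258 tumors lie at -0.39 to -0.28 for G2/M genes and at -0.11 to -0.01 for G1 genes.

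Regulators of CDK1 phosphorylation at mitotic entry were examined first, and among them was the member with the largest difference. Cdc25c encodes a phosphatase that removes inhibitory phosphates from CDK1 at mitotic entry. Its signal was 7.92, 8.14 and 7.94 in the water tumors and 7.46, 7.44 and 7.31 in the TKI258 tumors, a gap of 0.46 between the closest tumors of the groups. It was 1.51-fold lower on average with TKI258 (-0.59 ± 0.10, limma adjusted p = 0.484), and the SD within a group was 0.12 with water and 0.08 with TKI258. No member had a smaller p. Cdc25b, a related phosphatase that acts earlier in G2, was 8.65, 8.67 and 8.85 with water and 8.40, 8.44 and 8.40 with TKI258. Its difference was smaller (-0.31 ± 0.09, limma adjusted p = 0.572), and its TKI258 tumors had an SD of 0.03. The opposing kinase gene Wee1, whose product adds the inhibitory phosphate, was also lower: 9.64, 9.81 and 9.82 against 9.40, 9.62 and 9.51 (-0.24 ± 0.10, limma adjusted p = 0.615). For Wee1 the closest tumors of the groups differed by only 0.02, and after median centring they overlapped. Cdc25a, the family member that acts at G1/S, differed by -0.12 ± 0.10, and its groups overlapped.

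Both transcription factors of the late cycle were lower on average in the TKI258 tumors. Foxm1, a forkhead factor that activates mitotic genes, was 8.59, 8.62 and 8.87 in water tumors and 8.17, 8.26 and 8.23 in TKI258 tumors. That is 1.39-fold lower (-0.47 ± 0.10, limma adjusted p = 0.500), with a gap of 0.34 between groups. Mybl2, which encodes the MYB factor that joins MuvB, was 8.56, 8.37 and 8.73 against 7.87, 8.19 and 8.09. It was 1.42-fold lower (-0.51 ± 0.13, limma adjusted p = 0.567), with the least separated tumors 0.18 apart. Myc, the mitogen-induced factor of G1, was 10.75, 10.68 and 10.74 against 10.82, 10.67 and 10.46. Its groups overlapped (-0.07 ± 0.11, limma adjusted p = 0.865), and without TKI258 replicate 3 the difference was 0.03. The late factors and the G1 factor thus differed in whether their tumors separated; this contrast itself was not tested.

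The mitotic cyclins and their kinase had smaller differences than the factors above. Ccna2 (cyclin A2, active in S and G2) was 10.22, 10.22 and 10.43 in water and 10.00, 10.01 and 10.05 in TKI258 tumors (-0.27 ± 0.09, limma adjusted p = 0.591). Ccnb2 (cyclin B2, a partner of CDK1) was 10.21, 10.35 and 10.44 against 10.09, 10.13 and 10.06 (-0.24 ± 0.09, limma adjusted p = 0.611). Cdk1 itself was 9.85, 9.79 and 9.93 against 9.59, 9.75 and 9.46 (-0.26 ± 0.10, limma adjusted p = 0.614). All 3 genes were about 1.18-fold to 1.21-fold lower, and in each the lowest water tumor lay above the highest TKI258 tumor, by 0.17, 0.08 and 0.05. Ccnf, which encodes cyclin F, the substrate-binding part of a ubiquitin ligase, was 9.50, 9.48 and 9.58 against 9.38, 9.35 and 9.14 (-0.23 ± 0.10, limma adjusted p = 0.623). Ccna1, the cyclin A of the germ line, had signals of 4.62 to 4.89, below every array's median, and differed by 0.11 ± 0.09.

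**Figure D3:**
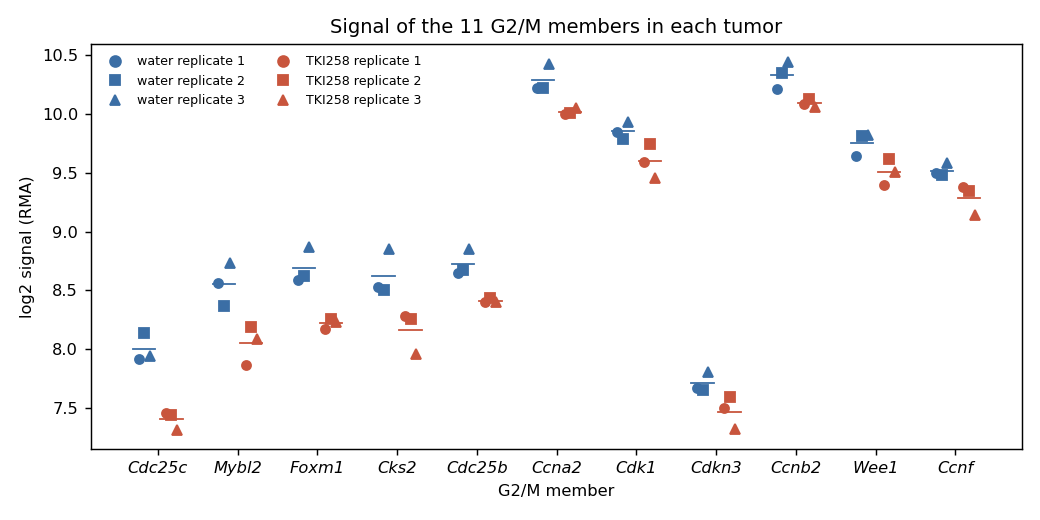
Log2 signal (y axis) of the 11 G2/M genes (x axis) in each tumor; marker shape gives the replicate, blue is water, red is TKI258, and the short lines are group means (n = 3). In every gene the 3 TKI258 tumors lie below the 3 water tumors, most widely for Cdc25c (gap 0.46) and least for Wee1 (gap 0.02).

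Small proteins that dock on CDKs or change their phosphates were next examined. Cks2, one of the CDK-binding Cks proteins, was 8.53, 8.50 and 8.85 in water tumors and 8.28, 8.26 and 7.96 in TKI258 tumors, 1.38-fold lower (-0.46 ± 0.14, limma adjusted p = 0.574). Cks2 had 3 probe sets on the array, and all listed the same transcripts. The other 2 gave -0.44 ± 0.17 and -0.41 ± 0.16, and in each of the 3 the groups did not overlap. Because probe sets of 1 transcript can read related copies, the 3 values are not independent. Its relative Cks1b, which helps the SKP2 ubiquitin ligase recognise p27, differed by -0.19 ± 0.10, and its closest tumors differed by only 0.00225. Skp2 differed by -0.15 ± 0.10 with overlapping groups. Cdkn3, a phosphatase that removes the activating phosphate of CDKs, was 7.67, 7.65 and 7.81 against 7.50, 7.59 and 7.32 (-0.24 ± 0.10, limma adjusted p = 0.630). This role had 8 genes (the CDC25 phosphatases, Wee1, Cdkn3, Cks1b, Cks2 and Skp2), with a median difference of -0.24. All 8 were lower on average (43.4% of all genes) and 6 separated the groups (6.49% of all genes). Of those 6, all but Cks1b are G2/M members already counted above.

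Upstream sequences of the CDK genes and of cyclins B2 and F are shown because late-cycle genes are known to be switched on through short promoter elements. Promoter windows (250 bases before to 50 after the start, RefSeq, build GRCm38.p6) were matched by symbol for 32 of the 44 members. They were searched on both strands for the CHR element (TTTGAA or TTCGAA), to which MuvB complexes bind, for the E2F site (TTTGGCGC, TTTCGCGC or TTTCCCGC), and for CCAAT, the box bound by NF-Y. No match in a member overlapped one of another motif. Printed are the 150 bases just upstream of the start, 5′ to 3′ on the strand of the gene, with matches in capitals, for 3 G2/M members (Cdk1, Ccnb2, Ccnf), the G1/S kinase gene Cdk2 and the G1 kinase genes Cdk4 and Cdk6. These stretches lie at chr10:69352913-69353062 (minus strand, Cdk1), chr9:70421555-70421704 (minus strand, Ccnb2), chr17:24251410-24251559 (minus strand, Ccnf), chr10:128705052-128705201 (minus strand, Cdk2), chr10:127063385-127063534 (plus strand, Cdk4), chr5:3343743-3343892 (plus strand, Cdk6).
Cdk1: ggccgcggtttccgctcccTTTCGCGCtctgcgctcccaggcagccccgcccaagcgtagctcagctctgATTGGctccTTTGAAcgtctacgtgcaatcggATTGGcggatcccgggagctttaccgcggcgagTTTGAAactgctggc
Ccnb2: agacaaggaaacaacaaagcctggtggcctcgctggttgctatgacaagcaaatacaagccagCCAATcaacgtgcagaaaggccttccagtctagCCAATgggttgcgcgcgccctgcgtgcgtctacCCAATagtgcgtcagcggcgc
Ccnf: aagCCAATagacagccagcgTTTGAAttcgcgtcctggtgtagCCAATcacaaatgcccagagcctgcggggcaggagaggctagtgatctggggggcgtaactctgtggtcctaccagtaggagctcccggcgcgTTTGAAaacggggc
Cdk2: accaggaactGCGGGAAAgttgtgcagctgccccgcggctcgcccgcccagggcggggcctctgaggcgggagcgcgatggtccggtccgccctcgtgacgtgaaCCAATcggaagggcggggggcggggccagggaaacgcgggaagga
Cdk4: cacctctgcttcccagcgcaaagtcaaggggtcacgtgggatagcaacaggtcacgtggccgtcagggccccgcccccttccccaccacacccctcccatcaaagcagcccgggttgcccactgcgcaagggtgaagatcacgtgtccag
Cdk6: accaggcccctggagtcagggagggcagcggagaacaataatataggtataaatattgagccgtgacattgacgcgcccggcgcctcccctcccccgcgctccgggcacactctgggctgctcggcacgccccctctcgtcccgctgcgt

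Cdk1 held all 3 motifs, with an E2F match beginning 131 bases, and CHR matches 71 and 15 bases, before the start. Ccnb2 held 3 CCAAT boxes spaced 33 bases apart, and its CHR matches lay outside the printed stretch, at 167 bases before and position 5 after the start. Ccnf had CHR matches 130 and 14 bases upstream, the first between its CCAAT boxes. Cdk2 had an E2F match and a CCAAT box, and no match lay in the printed stretches of Cdk4 and Cdk6. Over the classes, the CHR element was found in 5 of 7 G2/M members with a window, 5 of 13 G1/S and 2 of 9 G1 members, compared with 21.7% of all genes with a window. E2F sites were found in 6 of 13 G1/S members (Cdk2, Cdc25a, E2f2, E2f3, E2f7 and Tfdp1), 1 of 7 G2/M and 1 of 9 G1 members, against 2.12% of all genes. CCAAT was found in 6 of 7, 8 of 13 and 4 of 9 G2/M, G1/S and G1 members, against 41.1% of all genes. A match describes the letters of the window only, since no binding was measured in these tumors.

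D-type cyclins, which respond to growth factors, were not lower. Ccnd1 (cyclin D1) was 11.73, 11.66 and 11.71 in water tumors and 11.66, 11.89 and 11.60 in TKI258 tumors, a difference of 0.01 ± 0.10 (limma adjusted p = 0.976). Its direction turned with median centring (-0.0044), and its groups overlapped. Ccnd2 was 10.17, 9.75 and 9.86 against 10.30, 10.12 and 10.49 (0.38 ± 0.15, limma adjusted p = 0.614), 1.3-fold higher on average. Water replicate 1 and TKI258 replicate 3, the highest of their groups for Ccnd2, were also the tumors with high B cell markers (6.91 and 8.78) and T and NK cell markers (6.18 and 7.36, against 5.21 to 5.57 in the others). The part of these cells in the Ccnd2 signal was not tested. With the B cell marker mean as a covariate the difference was 0.30 with a limma p under 0.05. With the epithelium marker mean as a covariate it was 0.16 and with array weights 0.29, and in neither was the limma p under 0.05. When 1 array was left out, Ccnd2 did not reach that p without TKI258 replicate 1 or 3 or water replicate 2 or 3. It did without TKI258 replicate 2 or water replicate 1. Without both tumors with high B cell markers the difference was 0.40 with a limma p under 0.05. In that setting both remaining TKI258 tumors lay above both remaining water tumors, as in 24.8% of all genes. Ccnd3 was 7.61, 7.97 and 7.78 against 8.09, 7.87 and 8.23 (0.28 ± 0.13, limma adjusted p = 0.657), and TKI258 replicate 2 lay below water replicate 2. With all arrays included, all 3 D-type cyclin genes therefore overlapped between the groups, as did 16917 of 19937 genes.

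**Figure D4:**
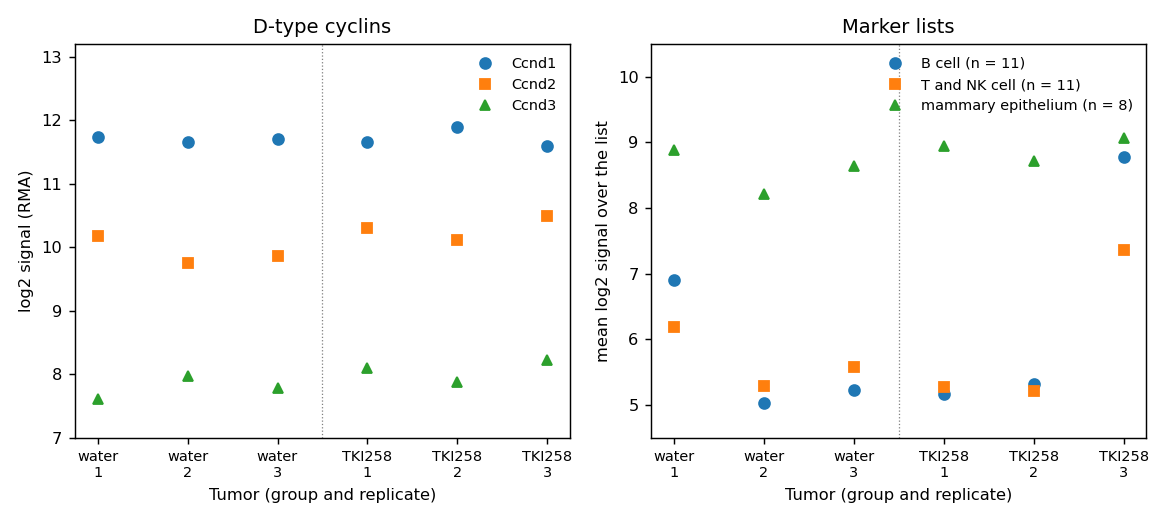
Left, log2 signal (y axis) of Ccnd1, Ccnd2 and Ccnd3 in each tumor (x axis, water left and TKI258 right of the dotted line). Right, mean log2 signal of B cell, T and NK cell and mammary epithelium markers in the same tumors; TKI258 replicate 3 has the highest B cell mean (8.78) and the highest Ccnd2 (10.49).

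The G1 kinases were nearly level between groups. Cdk4 was 11.89, 11.78 and 11.88 in water tumors and 11.90, 11.87 and 11.64 in TKI258 tumors (-0.04 ± 0.10, limma adjusted p = 0.912). Cdk6 was 10.63, 10.47 and 10.56 against 10.44, 10.74 and 10.44 (-0.01 ± 0.11, limma adjusted p = 0.982), the highest p among the members. Their SEs are near those of the mitotic genes, so these small differences were measured about as precisely as the -0.26 of Cdk1. Cdk2, the kinase of cyclins E and A, was 10.11, 10.08 and 10.15 against 9.97, 10.05 and 9.82 (-0.17 ± 0.09, limma adjusted p = 0.669), with all TKI258 tumors below and a gap of 0.03. Of the CDK-activating kinase, which phosphorylates the other CDKs, Ccnh differed by -0.17 ± 0.09 without overlap (gap 0.01) and Cdk7 by -0.03 ± 0.13. A second Cdk7 probe set gave 0.06 ± 0.17, so its direction depended on the probe set.

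Among the 4 CDK inhibitor genes of the member list, no separation with higher TKI258 tumors was seen, where 8.66% of all genes separated that way. So few genes cannot be told apart from that share. Cdkn1b encodes p27, the inhibitor of cyclin E and CDK2 that mitogens lower. It was 9.56, 9.88 and 9.72 in water tumors and 9.46, 9.62 and 9.39 in TKI258 tumors (-0.23 ± 0.12, limma adjusted p = 0.658), and its second probe set gave -0.35 ± 0.15. When the probe sets of a gene were averaged, its TKI258 tumors all lay below the water tumors (-0.29), as in 6.52% of all genes. Cdkn2d, which encodes the CDK4 and CDK6 inhibitor p19, was 8.62, 8.70 and 8.77 against 8.48, 8.45 and 8.47. With 1 probe set per gene it was the single G1 member whose tumors separated, 1.17-fold lower with TKI258 (-0.23 ± 0.08, limma adjusted p = 0.596). Its TKI258 tumors had an SD of 0.01. The related Cdkn2c (p18) differed by -0.11 ± 0.13, and Cdkn2b (p15), with signals of 6.05 to 6.33 below every array's median, by 0.02 ± 0.11. Of these 4 genes, 3 were lower on average and 1 was lower with a limma p under 0.05, as 3.35% of all genes were. Among the p53 and checkpoint genes, the further inhibitor genes Cdkn1c (0.22 ± 0.16) and Cdkn2a (0.11 ± 0.10) were higher on average with overlapping groups. Cdkn2a signals were 5.42 to 5.68, below every array's median, and Cdkn1c signals were 6.11 to 6.81, near it. Both genes are named here after their values were seen. The inhibitor gene Cdkn1a (p21) had no probe set of its own and was not analysed here.

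Among the pocket proteins, which hold E2F factors in check, the tumors overlapped for all 3, as for 16917 of the 19937 genes. Rb1 was 8.73, 9.01 and 8.37 in water and 8.74, 8.66 and 8.77 in TKI258 tumors (0.02 ± 0.16, limma adjusted p = 0.981). Rbl1, which encodes p107 and is itself an E2F target, was 9.26, 9.44 and 9.52 against 8.91, 9.25 and 9.27 (-0.26 ± 0.13, limma adjusted p = 0.658). TKI258 replicate 3 exceeded water replicate 1 by a small margin, and the other tumors separated. Rbl1 was lower with a limma p under 0.05 with the replicate block (2.73% of all genes) and with array weights (3.68%). The same held without both tumors with high B cell markers (3.77%). Rbl2, which encodes p130 of resting cells, differed by -0.04 ± 0.20 and was highest of all tumors in TKI258 replicate 3 (8.85). Its direction turned without TKI258 replicate 1 (0.01), TKI258 replicate 2 (0.12) or water replicate 2 (0.05).

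The cyclin E genes diverged. Ccne1 was 7.83, 7.79 and 7.92 in water tumors and 7.87, 7.79 and 7.72 in TKI258 tumors (-0.05 ± 0.09, limma adjusted p = 0.870). Ccne2 was 7.59, 7.66 and 7.95 against 7.40, 7.60 and 6.98, the largest difference of the G1/S class (-0.40 ± 0.18, limma adjusted p = 0.637). TKI258 replicate 2 slightly exceeded water replicate 1, so its groups overlapped, and the low value came from TKI258 replicate 3. The difference between the Ccne genes was not tested.

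E2F factors and their DP partners gave a graded picture. E2f1, the classical activator, was 8.07, 7.94 and 7.98 in water tumors and 7.87, 7.90 and 7.58 in TKI258 tumors (-0.21 ± 0.11, limma adjusted p = 0.667), and it was the single gene of this role whose groups did not overlap, by a gap of 0.04. The atypical repressors E2f7 and E2f8, themselves induced in S phase, differed by -0.18 ± 0.12 and -0.28 ± 0.15. The activators E2f2 and E2f3 differed by 0.09 ± 0.09 and -0.08 ± 0.13, and a second E2f3 probe set gave -0.24 ± 0.12. The repressors of resting and early G1 cells, E2f4 and E2f5, differed by -0.09 ± 0.11 and -0.10 ± 0.13, and the pocket-independent repressor E2f6 by -0.03 ± 0.09. The partner Tfdp1 differed by 0.05 ± 0.08 (-0.02 ± 0.09 in a second probe set) and Tfdp2 by -0.32 ± 0.20, with a wide spread in both groups. Over these 10 genes the median was -0.10, and 0 had a limma p under 0.05 in either direction. On average 8 were lower (43.4% of all genes), and 1 separated the groups (6.49% of all genes). Some alternatives gave a limma p under 0.05, always with TKI258 lower. They were E2f7 (-0.32) and E2f8 (-0.49) with the epithelium covariate (1.79% of all genes), and both without water replicate 2 (2.7%). E2f8 reached that p with array weights (3.68%) and Tfdp2 without water replicate 1 (3.33%). Ccng1, a p53-induced cyclin without a phase here, differed by -0.05 ± 0.12.

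Other genes of the pathway were read from lists of targets, subunits and regulators that hold no member. Genes activated by MuvB with FOXM1 in mitosis were lower together with the G2/M members: all 23 had a lower TKI258 mean, 22 separated the groups and 20 had a limma p under 0.05, with a median of -0.39. Over all genes these shares were 43.4%, 6.49% and 3.35%. Nusap1 (a spindle protein, -0.58 ± 0.09), Hmmr (a spindle-associated receptor of hyaluronan, -0.65 ± 0.11) and the checkpoint kinase gene Bub1 (-0.64 ± 0.12) had the smallest p, and limma's adjusted p was 0.484 for each. Genes of DNA synthesis that E2F factors activate had smaller differences, although this contrast was not tested. All 23 measured were lower on average, 9 separated the groups and 5 had a limma p under 0.05, with a median of -0.19, where 6.49% of all genes separated that way and 3.35% were lower at that p. The smallest p belonged to Rrm1 (-0.31 ± 0.08), Gmnn (-0.28 ± 0.09) and Prim1 (-0.32 ± 0.12). Without water replicate 3 the median of this list was -0.12. TKI258 replicate 2 (-0.08) overlapped the water tumors (-0.10 to 0.13) for the median of this list. The lower means of mitosis and DNA synthesis genes were known from earlier results of these tumors, so they are no independent evidence for the members.

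The list of MuvB subunits also held the kinase genes Dyrk1a (-0.18 ± 0.12) and Dyrk1b (0.02 ± 0.08), which encode no subunit. With these included, 5 of 7 genes were lower on average (43.4% of all genes), and the median was -0.18. The 2 with a limma p under 0.05 (3.35% of all genes were lower at that p) were Lin9 (-0.32 ± 0.10) and Lin54 (-0.33 ± 0.11). Lin54 encodes the subunit that binds the CHR element. Lin52 differed by -0.21 ± 0.11, Lin37 by -0.13 ± 0.10 and Rbbp4 by 0.02 ± 0.09. Another list held the SCF and APC/C ubiquitin ligases, which destroy cyclins and inhibitors, with linked regulators and substrates. Of its 24 measured genes, 18 were lower on average (43.4% of all genes), and the median was -0.10. The 3 with a limma p under 0.05 were Pttg1, Fbxo5 and Espl1 (-0.29 ± 0.08, -0.32 ± 0.12 and -0.36 ± 0.14), where 3.35% of all genes were lower at that p. Of the 24, 6 separated with the TKI258 tumors below (6.49% of all genes) and 2, Anapc13 (0.19 ± 0.09) and Cdc26 (0.23 ± 0.12), with them above (8.66% of all genes). Without TKI258 replicate 3 the median was -0.04. Pttg1, Fbxo5 and Espl1 encode securin, the APC/C inhibitor EMI1 and separase, so no ligase subunit had a limma p under 0.05. The ligase subunits that separated with TKI258 below were Anapc2 (-0.15 ± 0.10) and Cdc27 (-0.15 ± 0.10). Of 15 p53 and checkpoint genes, 7 were lower on average (43.4% of all genes). The median was 0.00, which became -0.09 without TKI258 replicate 3. Both with a limma p under 0.05 (3.35% of all genes were lower at that p) were checkpoint kinase genes, Chek2 (-0.65 ± 0.13) and Chek1 (-0.37 ± 0.09). Mdm4 differed by 0.18 ± 0.12. Trp53 had no probe set of its own and was not analysed here.

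Most cyclins and CDKs outside the members act in transcription or outside the cycle. Of 28 measured, 18 were lower on average (43.4% of all genes) and 3 were lower with a limma p under 0.05 (3.35% of all genes). The groups separated for 5. The median was -0.03 and ran from -0.07 to 0.02 when each array was left out in turn. Ccng2, which encodes a cyclin linked to arrested cells, was 9.78, 9.85 and 10.05 in water and 9.52, 9.46 and 9.40 in TKI258 tumors (-0.43 ± 0.10, limma adjusted p = 0.533). Ccnl1 (-0.22 ± 0.08) and Cdk11b (-0.26 ± 0.10), both linked to RNA splicing, followed. The mitotic cyclin gene Ccnb1 had no probe set of its own and was not analysed here. All 5 that separated had the TKI258 tumors below, where 6.49% of all genes did.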

How the data were processed

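The data are 6 arrays: 3 water and 3 TKI258 tumors, 1 array each. The authors deposited RMA signals on the log2 scale, and their tools were RMA, affy and limma (no versions), per the submitters' processing notes. The genome build is not given in the sources used here. Of 34760 probe sets, 21640 had 1 gene in the platform annotation, 1321 several and 11799 none listed. Gene symbols of all 44 members matched the mouse reference table by Entrez number. TKI258 was compared with water by limma 3.58.1 (R 4.3.3) with group as the only term, two-sided, over all probe sets, with Benjamini-Hochberg adjustment at 0.05 and no filter; the code was checked on simulated data. Group separation means that all tumors of 1 group lie below those of the other. Each gene was read from its probe set with the highest mean.

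Members and lists were chosen with earlier results of these data known. Every member was named; values per tumor were given for the 16 with the smallest p and for 15 textbook regulators, and the 3 smallest p of each pathway list. Alternatives were a replicate block, arrays left out, filters on signal and on variance, median centring, quantile normalization, array weights, another prior (trend, robust), averaging the probe sets of a gene, B cell and epithelium covariates, another threshold and other phase classes. Same-numbered tumors did not deviate together (correlations -0.23, 0.19 and 0.01), so the numbers were not used as pairs. The number of arrays limits the precision.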

Additional observations from a re-analysis of the deposited data

How the results depend on the processing

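No member passed limma's adjusted threshold of 0.05 under any alternative run (0 in each), nor at 0.1; the G2/M members tested (9 under the variance filter, which left out Ccnb2 and Ccnf, and 11 elsewhere) stayed lower throughout. The variance filter kept 21 of the 44 members and left 4 lower and 0 higher with a limma p under 0.05, and 10 separated with TKI258 below (3.22% of all genes lower at that p and 8.1% separated under it). Under it the medians were -0.28 (G1/S), -0.27 (the list with the MuvB subunits), -0.24 (SCF and APC/C) and -0.15 (other cyclins and CDKs). That filter used the SD over both groups. With the mammary epithelium covariate 0 members were higher with a limma p under 0.05. Leaving out 1 array gave 5 to 11 lower members with a limma p under 0.05 (2.02% to 3.38% of all genes). It gave 0 to 2 higher members at that p (3.79% of all genes with all arrays included). Members with all TKI258 tumors above then numbered 1 to 2 (12.1% to 16.6% of all genes). The G1 median was -0.09 to 0.01 and the p53 list median -0.09 to 0.03. The count of 5 lower came without TKI258 replicate 1 or water replicate 3. Without both TKI258 replicate 3 and water replicate 1, 4 members had all TKI258 tumors above (24.8% of all genes), the G1 median was 0.02, and Cdk4 (0.06), Cdk6 (0.08), Cdk7 (0.07), Cdkn2c (0.05), E2f3 (0.10), E2f6 (0.05) and Myc (0.04) changed direction. Directions also turned with the B cell covariate (Cdk6 0.00086, Cdk7 0.03, Cdkn2b -0.02), array weights (Cdk7 0.08, Cdkn2b -0.04), the epithelium covariate (Ccng1 0.01, Cdk7 0.07, Cdkn2b -0.11, Tfdp2 0.01), the mean of probe sets (Cdk7 0.01), median centring (Ccnd1 -0.0044) and quantile normalization (Cdk6 0.02, Cdk7 0.01, Cdkn2b -0.0045). With 1 array left out, ranges that cross 0 were -0.07 to 0.07 (Ccnd1), -0.14 to 0.03 (Ccng1), -0.09 to 0.04 (Cdk4), -0.11 to 0.04 (Cdk6), -0.12 to 0.09 (Cdk7), -0.05 to 0.08 (Cdkn2b), -0.21 to 0.01 (Cdkn2c), -0.17 to 0.03 (E2f3 and E2f5), -0.08 to 0.03 (E2f6), -0.15 to 0.03 (Myc), -0.15 to 0.17 (Rb1) and -0.25 to 0.12 (Rbl2). The cause was not tested. With the replicate block, 7 members were lower and 1 higher with a limma p under 0.05 (10 and 1 without it). The share of all genes lower at that p was 2.73% with the block and 3.35% without it. Of 6 tumors, 2 correlated best with their own number. With so few tumors, this cannot settle whether the numbers mark pairs. The alternatives for the pathway lists were chosen after seeing the data.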
